A study of Mus musculus with 6 samples.

Results

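The small leucine-rich proteoglycans (SLRPs) were examined in lymphatic endothelial cells (LECs) sorted from the mouse dura mater. The members are the 9 genes *Dcn*, *Bgn*, *Lum*, *Ogn*, *Fmod*, *Omd*, *Aspn*, *Prelp* and *Kera*. They were picked by gene name among the 55401 genes of the deposited tables, with no cut on their values. Earlier results of these data were known when the members were chosen. The study asked how VEGF-C, a growth factor for lymphatic vessels, acts on dural LECs. C57BL/6J male mice of wild-type genotype, 4 weeks old, received 1 injection of an adeno-associated virus (AAV) into the cerebrospinal fluid at the cisterna magna. The AAV-VEGF-C group received a vector for full-length mouse VEGF-C, and the AAV-CTRL group received a vector for a soluble part of the VEGF-C receptor VEGFR3 that does not bind VEGF-C, so both groups carried a virus. Cells were sorted as LYVE-1+/PDPN+/CD31+/CD45-, and each group had 3 libraries of 10 to 12 pooled meninges, 1 from each of experiments 1 to 3.

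All of the 8 members with enough counts for a test had lower estimates in AAV-VEGF-C. So had 50.2% of all tested genes and 76.0% of those reaching a mean of 5 TPM, as all 8 members do. The test was passed by 2 of the 8, *Dcn* and *Ogn*, as by 0.659% of all genes in this direction and 1.45% of those reaching a mean of 5 TPM. Both calls were lost when any 1 library was left out and after correction for GC content (adjusted p of 0.126 and 0.0990, edgeR). Calls over all genes fell as well, to between 0 and 48 genes lower without 1 library and to 0.0459% after GC correction. With the experiment as a block beside GC correction, a fit chosen after seeing the data, both passed (adjusted p of 0.0261 and 0.0323, edgeR). *Dcn*, which encodes decorin, was 3.22-fold lower and *Ogn*, which encodes osteoglycin (mimecan), was 3.61-fold lower. *Bgn* (biglycan) and *Fmod* (fibromodulin) were the most abundant members in both groups. *Kera* (keratocan) was at or under the level of background in every library.

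SLRPs are secreted proteins with a core of leucine-rich repeats, which in most members carries chondroitin, dermatan or keratan sulfate chains. They bind fibrillar collagen and limit the lateral growth of its fibrils, and several also bind growth factors such as TGF-β or act on receptors of the cell surface. In connective tissue they are made mainly by fibroblasts, and the dura mater is a collagen-rich sheet in which fibroblasts are the main matrix-producing cells. The family is divided into classes by the protein sequence and gene structure. *Dcn*, *Bgn* and *Aspn* belong to class I, *Lum*, *Fmod*, *Prelp*, *Kera* and *Omd* to class II, and *Ogn* to class III.

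The members lie in 4 places of the genome (GENCODE M21 annotation, GRCm38). *Dcn* (chr10:97479609-97518143), *Lum* (chr10:97565128-97572703) and *Kera* (chr10:97606879-97613692) stand next to each other on the plus strand. *Aspn* (chr13:49544443-49567565), *Omd* (chr13:49582462-49592822) and *Ogn* (chr13:49608046-49624501) form a second row on the plus strand. *Prelp* (chr1:133910304-133921414, minus strand) and *Fmod* (chr1:134037254-134048277, plus strand) are a pair, and *Bgn* (chrX:73483602-73495933, plus strand) stands alone. All 9 are protein-coding. *Aspn*, *Omd* and *Ogn* lie within the span of *Cenpp* on the other strand, and the antisense gene *Gm15851* overlaps *Prelp*, so their counts are uncertain as far as counting did not use strand. *Cenpp* itself had 9 counts over the AAV-CTRL libraries and 5 over the AAV-VEGF-C libraries, against 4868 and 296 for *Ogn*.

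Promoter windows (RefSeq, GRCm38.p6, 250 bases before to 50 after the start) were found for 7 of the 9 members, all but *Dcn* and *Lum*. The windows of *Bgn* and *Fmod*, the most abundant members, and of *Ogn* and *Aspn*, which had the largest estimated falls, are printed to show how much the family differs in base composition. They are *Bgn* (chrX:73483351-73483650, plus strand), *Fmod* (chr1:134037004-134037303, plus strand), *Ogn* (chr13:49607765-49608064, plus strand) and *Aspn* (chr13:49544193-49544492, plus strand). Capitals mark matches, on either strand, of the TATA box letters TATAAA, of the CCAAT box or of the GC box letters GGGCGG.
Bgn: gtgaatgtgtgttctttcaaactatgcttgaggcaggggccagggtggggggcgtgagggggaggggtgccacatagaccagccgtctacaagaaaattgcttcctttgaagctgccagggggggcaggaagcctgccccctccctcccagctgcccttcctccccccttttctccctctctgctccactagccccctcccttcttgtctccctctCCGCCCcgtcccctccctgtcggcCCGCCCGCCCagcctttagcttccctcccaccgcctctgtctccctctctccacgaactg
Fmod: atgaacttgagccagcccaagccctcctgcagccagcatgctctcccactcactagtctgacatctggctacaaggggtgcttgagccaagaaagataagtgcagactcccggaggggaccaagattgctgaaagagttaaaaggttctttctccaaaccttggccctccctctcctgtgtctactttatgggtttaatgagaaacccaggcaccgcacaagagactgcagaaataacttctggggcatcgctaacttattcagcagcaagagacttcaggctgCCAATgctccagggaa
Ogn: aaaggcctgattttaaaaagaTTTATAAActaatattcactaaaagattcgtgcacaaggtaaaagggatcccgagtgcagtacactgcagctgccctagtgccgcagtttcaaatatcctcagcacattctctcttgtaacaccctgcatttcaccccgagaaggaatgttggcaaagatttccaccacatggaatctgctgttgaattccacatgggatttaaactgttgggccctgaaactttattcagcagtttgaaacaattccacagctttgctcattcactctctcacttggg
Aspn: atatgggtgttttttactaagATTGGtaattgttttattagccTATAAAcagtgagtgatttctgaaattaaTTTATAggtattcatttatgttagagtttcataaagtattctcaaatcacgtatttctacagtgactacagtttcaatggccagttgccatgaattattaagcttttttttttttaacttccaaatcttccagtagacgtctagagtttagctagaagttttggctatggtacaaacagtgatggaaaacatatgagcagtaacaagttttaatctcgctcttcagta
The GC content of these windows was 63.7% for *Bgn*, 51.0% for *Fmod*, 42.3% for *Ogn* and 31.0% for *Aspn*, with 55.3% for *Prelp*, 41.0% for *Kera* and 37.7% for *Omd*. The median of all 32851 promoters was 52.7%. TATAAA was found in 2 of the 7 windows (*Ogn*, *Aspn*) and in 13.6% of all promoters, CCAAT in 4 of 7 and 37.4%, and GGGCGG in 1 of 7 (*Bgn*) and 35.7%. The other motifs searched on both strands were CANNTG (5 of 7, 72.3%), CAGAC (2 of 7, 49.6%) and TGANTCA (0 of 7, 7.81%). CANNTG matches can overlap the others.

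The libraries differed in depth and in background with the group. Total counts ran from 6530269 to 12399498 for AAV-CTRL but from 564475 to 3261935 for AAV-VEGF-C, so depth and treatment cannot be told apart. Genes of families that these cells are not known to use (1653 olfactory, vomeronasal and taste receptors, keratin-associated proteins and defensins) took 136 to 263 CPM (the share of a library's counts) in AAV-CTRL, against 2747 to 6871 CPM in AAV-VEGF-C. LEC genes were present in every library: *Prox1*, a transcription factor that defines LECs, had 14.1, 6.44 and 7.45 TPM (the length-corrected share of a library) in AAV-CTRL 1, 2 and 3, against 9.62, 4.31 and 3.15 TPM in AAV-VEGF-C 1, 2 and 3. The summed TPM of 9 LEC markers was 517 to 614 in AAV-CTRL, against 167 to 350 in AAV-VEGF-C, and 0 of the 9 passed in edgeR, DESeq2 or voom or had an unadjusted p under 0.05 (4 had a negative estimate). *Pdgfra*, a growth factor receptor used as a marker of fibroblasts, was also present in every library, with a mean of 35.7 ± 11.6 TPM (SD, n = 3) in AAV-CTRL, against 10.2 ± 6.77 TPM in AAV-VEGF-C.

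The level per transcript length, in TPM, put the members in the same order in each of the 3 AAV-CTRL libraries: *Bgn*, *Fmod*, *Dcn*, *Prelp*, *Ogn*, *Lum*, *Aspn* and *Omd*, with *Kera* listed at 0. The ranges of every 2 neighbours in this order overlapped between libraries, and AAV-CTRL 2 was the lowest of its group for every tested member. In AAV-VEGF-C the order was the same except that *Prelp* lay above *Dcn* in libraries 1 and 3 and *Omd* above *Aspn* in libraries 1 and 2, and that *Kera* lay above *Aspn* in library 1, where *Aspn* was listed at 0. TPM values are a share of the library, and lower TPM in AAV-VEGF-C was common: no overlap with lower values was found for 36.4% of all 17459 tested genes on this scale and for 61.4% of the 7234 that reached a mean of 5 TPM. All 8 tested members had this pattern in TPM. In CPM scaled by TMM factors, the scale of the test, no overlap with lower values was found for 17.6% of tested genes, for 33.3% of those reaching a mean of 5 TPM, and for 7 of the 8 tested members (all but *Prelp*).

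**Figure D1:**
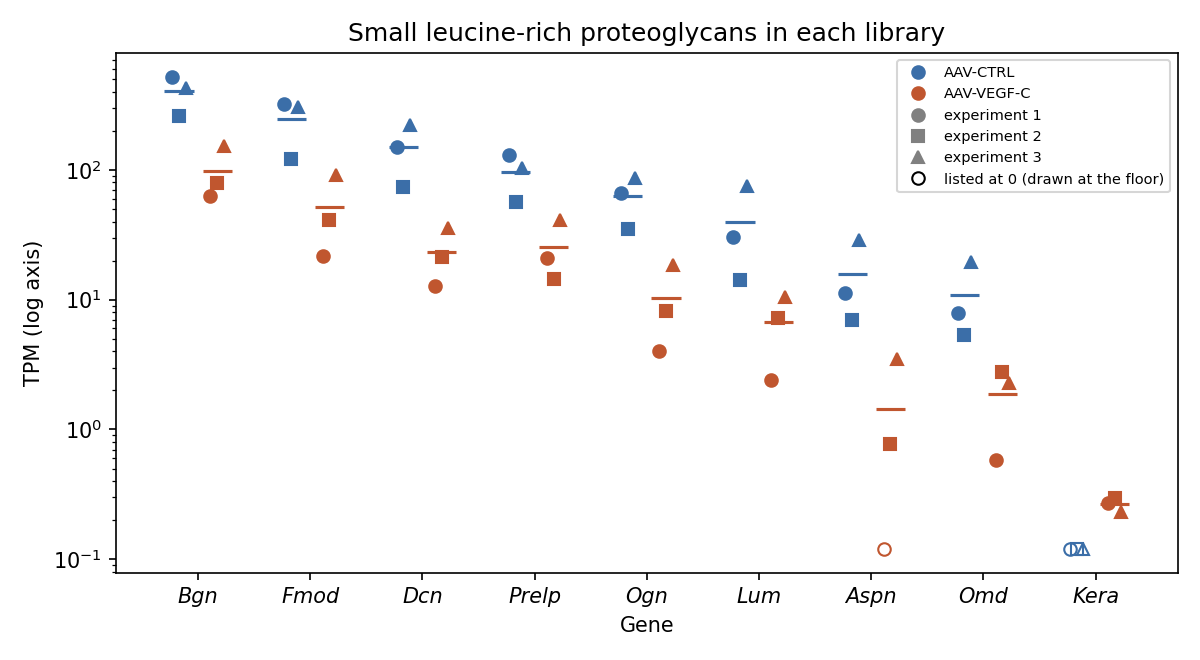
TPM of the 9 genes on a log axis, with 1 point per library, the experiment as the shape of the point, and the group mean as a line. All 3 AAV-CTRL libraries lie above all 3 AAV-VEGF-C libraries for every gene but *Kera*, and open points mark values listed at 0.

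Among class I, *Bgn* encodes biglycan, a close relative of decorin that also acts as a signal on toll-like receptors. *Bgn* was at 523, 259.9 and 424 TPM in AAV-CTRL 1, 2 and 3, against 63.3, 79.0 and 153 TPM in AAV-VEGF-C 1, 2 and 3. The groups did not overlap, but the within-group range of AAV-CTRL was wide, and the test gave a log2 fold change of -1.02 ± 0.46 (SE, n = 3) with an adjusted p of 0.194 (edgeR). *Dcn* encodes decorin, which binds collagen fibrils and several growth factors. *Dcn* was at 151, 74.4 and 223 TPM in AAV-CTRL, against 12.7, 21.5 and 35.9 TPM in AAV-VEGF-C. The lowest AAV-CTRL library lay above the highest AAV-VEGF-C library on both scales, and the difference passed the test (log2 fold change -1.69 ± 0.37, 95% interval -2.55 to -0.83, adjusted p = 0.0287). Within the experiments the CPM of *Dcn* differed by -2.07, -0.96 and -1.78 on the log2 scale in experiments 1, 2 and 3.

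*Aspn* encodes asporin, a class I member with an acidic N-terminal stretch that binds collagen. *Aspn* was at 11.2, 7.01 and 28.8 TPM in AAV-CTRL, from 175, 128 and 787 counts, and at 0, 0.766 and 3.52 TPM in AAV-VEGF-C, from 0, 4 and 36 counts. The count of 0 in AAV-VEGF-C 1 allows a level of up to 5.32 CPM (3 counts of that library's total, counting error only). The silent families predict 1.62, 2.15 and 3.75 background counts for a gene of this length in AAV-VEGF-C 1, 2 and 3, so only library 3 was far above background. The log2 fold change of *Aspn* was -2.50 ± 0.76 (adjusted p = 0.0786), and -2.73 with the experiment as a block (adjusted p = 0.0113), which passed.

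Among class II, *Fmod* encodes fibromodulin, a keratan sulfate carrier that binds collagen at another site than decorin. *Fmod* was at 322, 122 and 303 TPM in AAV-CTRL, against 21.7, 41.4 and 91.0 TPM in AAV-VEGF-C. The groups did not overlap, and the log2 fold change of -1.39 ± 0.48 missed the threshold (adjusted p = 0.107, unadjusted p = 0.0203). *Prelp* encodes a basic, arginine-rich member that binds heparan sulfate and collagen. It was at 131, 56.5 and 104 TPM in AAV-CTRL, against 20.8, 14.4 and 41.2 TPM in AAV-VEGF-C. *Prelp* was the only tested member whose groups overlapped in CPM, where AAV-VEGF-C 1 lay above AAV-CTRL 2 and 3, and its log2 fold change of -0.82 ± 0.50 was the smallest (95% interval -1.97 to 0.33, adjusted p = 0.322).

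*Lum* encodes lumican, which shares its collagen site with fibromodulin. *Lum* was at 30.4, 14.3 and 75.0 TPM in AAV-CTRL, against 2.42, 7.21 and 10.5 TPM in AAV-VEGF-C. In CPM the difference within experiments was -2.24, -0.28 and -2.0 on the log2 scale, so experiment 2 showed little of it. The log2 fold change was -1.61 ± 0.50 (adjusted p = 0.0814), and -1.46 with the experiment as a block (adjusted p = 0.0439), which passed. *Omd* encodes osteomodulin (osteoadherin), a member known from mineralised tissue. *Omd* was at 7.95, 5.35 and 19.6 TPM in AAV-CTRL, against 0.577, 2.79 and 2.28 TPM in AAV-VEGF-C, the latter from 1, 10 and 16 counts against 1.55, 2.06 and 3.59 counts expected from background. Its log2 fold change was -1.66 ± 0.57 (adjusted p = 0.105), with only -0.25 in experiment 2 against -2.56 and -2.50 in experiments 1 and 3.

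*Kera* encodes keratocan, a keratan sulfate proteoglycan of the cornea. *Kera* had 0 counts in the 3 AAV-CTRL libraries and 1, 2 and 3 counts in AAV-VEGF-C 1, 2 and 3, where background alone predicts 1.57, 2.09 and 3.63 counts. It was not tested by edgeR after the filter on low counts. DESeq2, and edgeR without the filter, called these 6 counts higher in AAV-VEGF-C, as they did 19.4% and 21.1% of the genes they tested.

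*Ogn*, the class III member, encodes osteoglycin, also called mimecan, a small keratan sulfate proteoglycan of connective tissue and bone. *Ogn* was at 66.6, 35.2 and 86.9 TPM in AAV-CTRL, against 4.04, 8.17 and 18.6 TPM in AAV-VEGF-C. Every AAV-CTRL library lay above every AAV-VEGF-C library on both scales. The log2 fold change was -1.85 ± 0.42 (95% interval -2.82 to -0.88, adjusted p = 0.0313), with -2.77, -1.42 and -1.52 within experiments 1, 2 and 3.

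**Figure D2:**
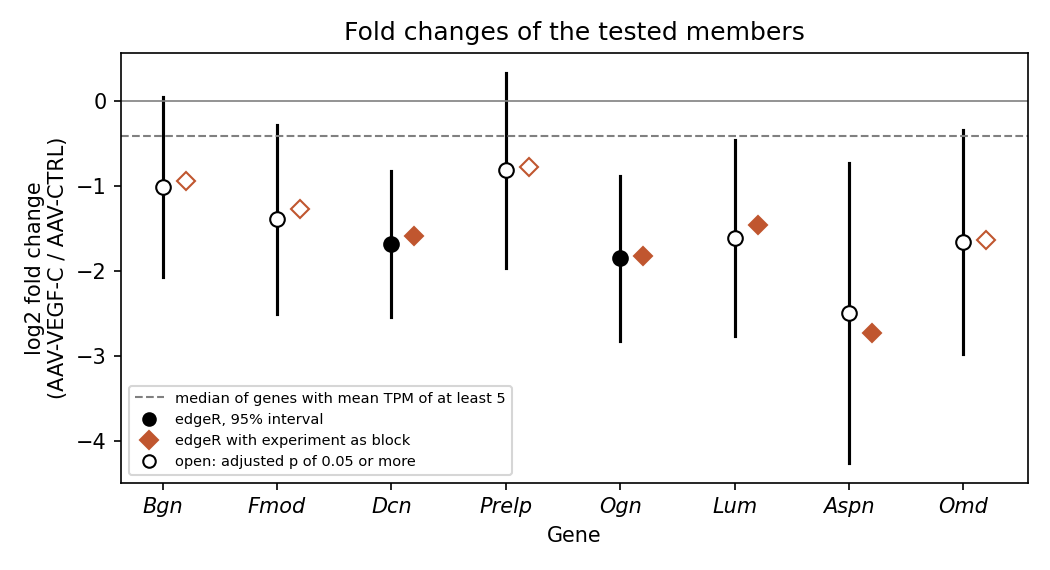
Log2 fold change of AAV-VEGF-C over AAV-CTRL (vertical axis) for the 8 tested genes, as circles with 95% intervals and, as diamonds, with the experiment as a block. Filled symbols mark an adjusted p under 0.05 (*Dcn* and *Ogn*, and with the block also *Lum* and *Aspn*), and the dashed line at -0.41 is the median of genes reaching a mean of 5 TPM.

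Over the family, 2 of 8 tested members were called lower and 0 higher by edgeR, with 6 at an unadjusted p under 0.05 and all of those lower. Over all 17459 tested genes, 0.659% were called lower and 10.5% higher, and 9.11% were lower at an unadjusted p under 0.05. Among the 7234 tested genes reaching a mean of 5 TPM, which all 8 members reach, 1.45% were called lower. With the experiment as a block, 4 of 8 members (*Dcn*, *Ogn*, *Lum* and *Aspn*) and 2.07% of all genes were called lower. DESeq2 called 5 of 9 lower (these 4 and *Fmod*) against 1.72% of genes. The median log2 fold change of the 8 members was -1.64, against -0.0037 over all tested genes and -0.41 over those that reached a mean of 5 TPM, of which 76.0% had a negative estimate. The calls of *Dcn* and *Ogn* depended on every library: leaving out any 1 of the 6 moved the adjusted p of *Dcn* to between 0.0552 and 0.0835 and that of *Ogn* to between 0.0528 and 0.0821, with log2 fold changes of -2.03 to -1.53 and -2.38 to -1.71. In bulk RNA, fewer cells of a type and less RNA of these genes per cell cannot be told apart.

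The make-up of the family was compared next, because shares within a library do not depend on its total. The summed TPM of the 9 genes was 1243, 574 and 1264 in AAV-CTRL 1, 2 and 3, against 126, 175 and 356 in AAV-VEGF-C 1, 2 and 3. *Bgn* made up 40.3% ± 6.06 (SD, n = 3) of this sum in AAV-CTRL, against 46.1% ± 3.85 in AAV-VEGF-C, and *Fmod* 23.7% ± 2.36 and 22.1% ± 4.36, with overlapping values. *Dcn* made up 14.2% ± 3.00 and 10.8% ± 1.24, with AAV-VEGF-C 2 at 12.2% just above AAV-CTRL 1 at 12.1%. *Ogn* was the only tested member whose shares did not overlap, at 5.36%, 6.13% and 6.88% in AAV-CTRL, against 3.21%, 4.65% and 5.22% in AAV-VEGF-C. Relative to the same sum, lower values with no overlap were found for 0.0745% of tested genes and 0.0553% of those reaching a mean of 5 TPM. The ratio of *Bgn* to *Dcn* was 3.47, 3.50 and 1.90 in AAV-CTRL, against 4.99, 3.68 and 4.25 in AAV-VEGF-C, so all 3 ratios of AAV-VEGF-C exceeded the highest ratio of AAV-CTRL. The ratios of *Fmod*, *Prelp*, *Ogn*, *Lum* and *Omd* to *Dcn* overlapped between groups. Only 0.412% of tested genes had a lower log2 fold change than *Dcn*, and the share of all genes with a higher ratio to it was not determined.

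**Figure D3:**
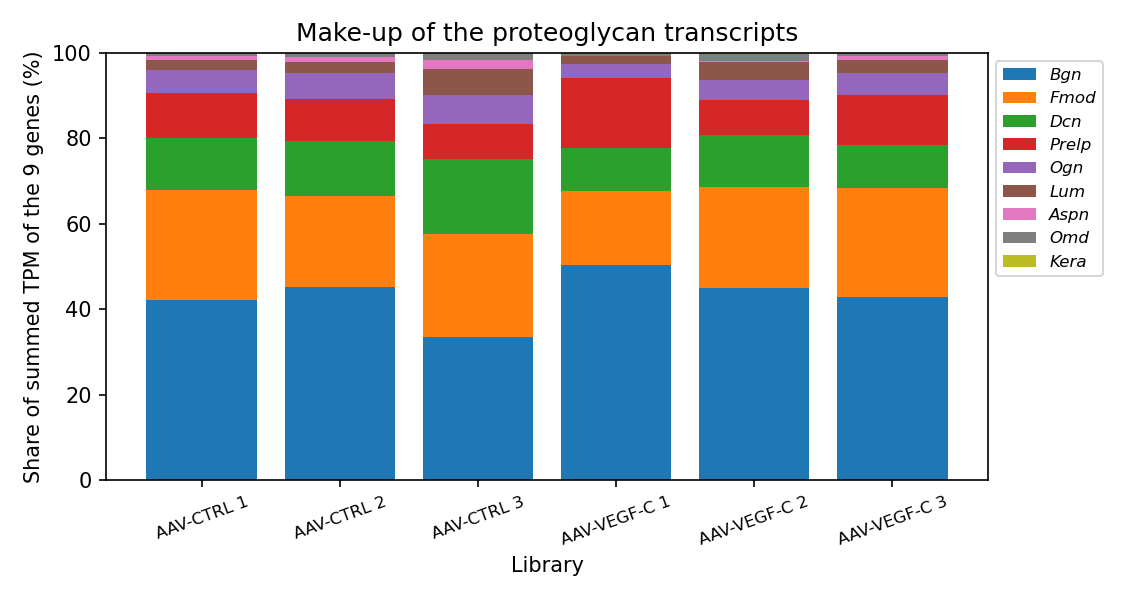
Share of each gene in the summed TPM of the 9 genes (vertical axis, percent), with 1 stacked bar per library. *Bgn* and *Fmod* fill more than 50% of every bar, and the *Ogn* segment is 5.36% to 6.88% in AAV-CTRL, against 3.21% to 5.22% in AAV-VEGF-C.

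The proteoglycans were also set against the collagen that they bind, within each library. *Col1a1*, which encodes a chain of type I collagen, was at 653 ± 240.5 TPM in AAV-CTRL, against 226 ± 147 TPM in AAV-VEGF-C, and its log2 fold change of -0.65 did not pass the test (adjusted p = 0.506). *Col1a2* (-0.79, adjusted p = 0.398) and *Col3a1* (-0.87, adjusted p = 0.187) did not pass either. The TPM of *Dcn* was 16.6%, 17.2% and 36.2% of that of *Col1a1* in AAV-CTRL 1, 2 and 3, against 11.6%, 12.0% and 9.19% in AAV-VEGF-C 1, 2 and 3. The groups did not overlap, and the mean log2 ratio differed by -1.0 (p = 0.1 in a two-sided exact permutation test, which cannot go lower with 3 libraries a group). AAV-CTRL 3 stood far above the other two, and without it the difference was -0.63. Against *Col1a2* and *Col3a1* it was -0.95 and -0.70, again with no overlap and an exact permutation p of 0.1. The share of all genes with no overlap was determined for *Col1a1* (below) but not for *Col1a2* or *Col3a1*. The ratios of *Ogn* and *Fmod* to *Col1a1* were also lower with no overlap (differences of -1.13 and -0.73 on the log2 scale), while those of *Bgn*, *Prelp*, *Lum* and *Omd* overlapped. A lower ratio to *Col1a1* with no overlap was found for 3 of these 7 members, for 0.853% of all tested genes and for 1.55% of those reaching a mean of 5 TPM. Relative to *Pdgfra*, itself at -1.16 on the log2 scale (adjusted p = 0.0790, and 0.0495 with the block), the ratio of each of these 7 members overlapped between groups, with a difference of -0.56 for *Dcn* and 0.03 for *Bgn*. A lower ratio to *Pdgfra* with no overlap was found for 0.178% of tested genes and 0.194% of those reaching a mean of 5 TPM.

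**Figure D4:**
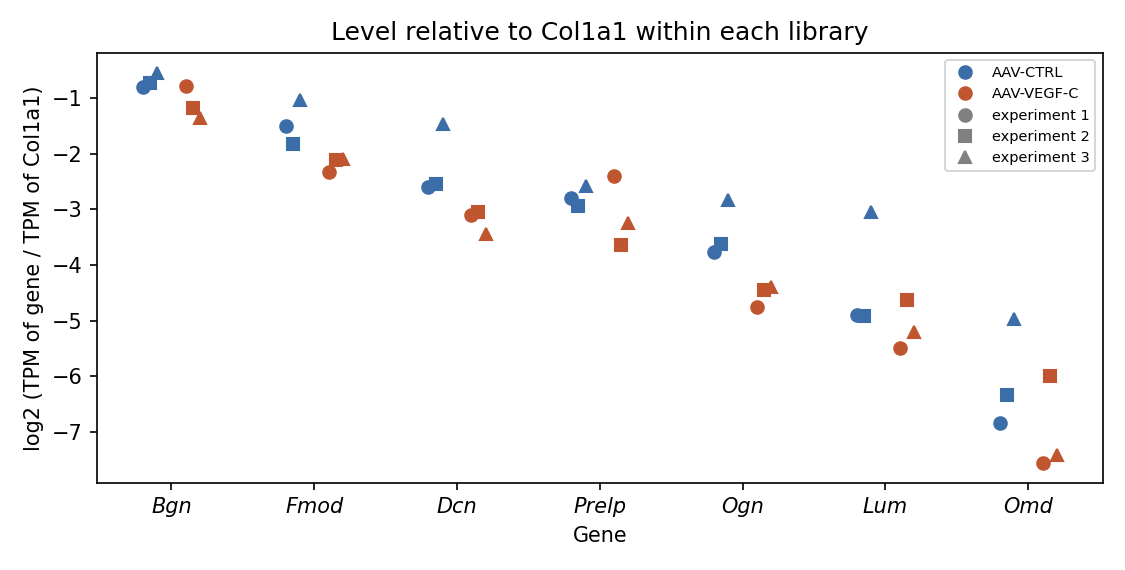
Log2 ratio of the TPM of each gene to that of *Col1a1* in the same library, with the group as colour and the experiment as shape. *Dcn*, *Ogn* and *Fmod* lie lower in all 3 AAV-VEGF-C libraries than in any AAV-CTRL library, the other 4 overlap, and *Aspn* and *Kera* are left out because of values listed at 0.

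The members fall into 2 sets by the base composition of their transcripts, and this moved with the fold change over all genes. *Aspn* (34.3% GC), *Omd* (36.1%), *Ogn* (36.3%), *Dcn* (37.4%) and *Lum* (41.9%) lie in the lowest of 4 equal bins of genes by GC, and *Bgn* (51.2%), *Fmod* (53.7%) and *Prelp* (53.8%) in the third bin. The median log2 fold change over genes reaching a mean of 5 TPM was -0.59, -0.48, -0.38 and -0.21 from the lowest to the highest bin, and 3.48%, 1.60%, 0.553% and 0.166% were called lower. Within the lowest bin, 0.885% of genes had a lower estimate than *Lum*, 0.664% than *Omd*, 0.553% than *Dcn*, 0.332% than *Ogn* and 0.166% than *Aspn*. Within the third bin, 1.22% lay below *Fmod*, 6.53% below *Bgn* and 14.9% below *Prelp*. The trend with GC was then taken out of each library, which also brings the median of these genes to 0.01. The log2 fold changes of *Dcn* and *Ogn* were then -1.07 (adjusted p = 0.126) and -1.28 (adjusted p = 0.0990, edgeR). In this fit 0 members passed, and 0.0459% of all genes were called lower at an adjusted p under 0.05. At an unadjusted p under 0.05, 4 members were lower, and the share of all genes at that threshold was not determined. With the experiment as a block beside the GC correction, *Dcn* (adjusted p = 0.0261), *Ogn* (0.0323) and *Aspn* (0.0323) passed, with 0.252% of all genes lower.

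**Figure D5:**
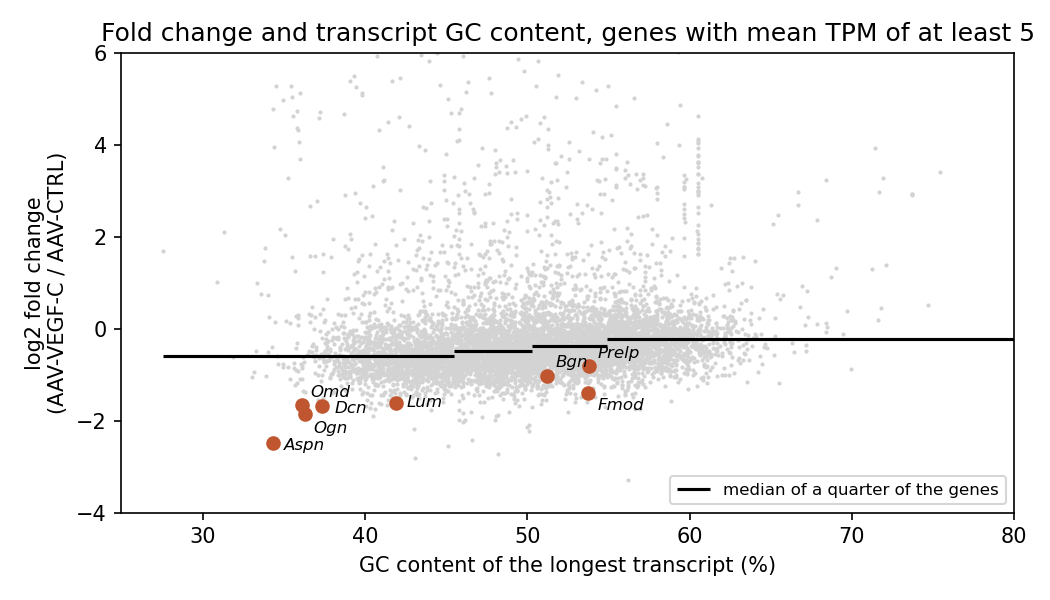
Log2 fold change of AAV-VEGF-C over AAV-CTRL against the GC content of the longest transcript (percent) for genes reaching a mean of 5 TPM (grey), with the tested SLRPs named and the median of each of 4 GC bins as a line. The medians climb from -0.59 to -0.21, every SLRP lies below the median of its bin, and 39 genes fall outside the axes.

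The levels of the members were then compared across the 6 libraries, which share the group difference and the differences in depth. The 28 pairs of tested members had Pearson correlations of log2 CPM from 0.206 to 0.962, with a median of 0.824. With *Dcn*, *Ogn* correlated best (0.962), followed by *Fmod* (0.937), *Lum* (0.926), *Omd* (0.854), *Bgn* (0.820), *Aspn* (0.760) and *Prelp* (0.699). Such values were common, since 530 of 6067 candidate genes had a correlation above 0.9 with *Dcn*. The 5 genes most like *Dcn* were *Cped1* (0.997), *Ptprk* (0.997), *Kifap3* (0.996), *Wdr82* (0.994) and *Apod* (0.990), the last of which encodes the lipid carrier apolipoprotein D. The median correlation of the candidate genes with *Dcn* was 0.557. *Pdgfra* correlated with *Dcn* at 0.933 and *Col1a1* at 0.650, while the LEC genes *Prox1* and *Lyve1* gave -0.20 and -0.32. The correlations of the other LEC markers with *Dcn* were not determined, so these values do not stand for LEC genes as a set.

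Of 9 further genes of the SLRP family, edgeR called 0 lower and 1 higher (median log2 fold change -0.48). At an unadjusted p under 0.05, 2 had a lower and 2 a higher estimate. Over all tested genes 9.11% were lower at that threshold, and the share higher was not determined. DESeq2 called 1 lower and 2 higher, voom 0 lower and 2 higher. Of all the genes they tested, edgeR, DESeq2 and voom called 10.5%, 19.4% and 13.6% higher, and 0.659%, 1.72% and 1.53% lower. The gene called higher was *Chadl*, a relative of chondroadherin, at 2.15 (adjusted p = 0.0393, and 0.0634 with the block). *Nyx* (nyctalopin), at 2.05 (adjusted p = 0.0711), was the other called higher by DESeq2 (adjusted p = 0.0375). Both were at low levels, with a mean over the 6 libraries of 1.13 TPM for *Chadl* and 0.49 TPM for *Nyx*. The neighbours of the members in the genome did not pass: *Ecm2* in the row of *Aspn* was at -1.05 (adjusted p = 0.0901), *Epyc* next to *Kera* at -0.49 (adjusted p = 0.582) and *Optc* next to *Prelp* and *Fmod* at 0.88 (adjusted p = 0.416).

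Genes of the matrix in which SLRPs work had mostly negative estimates and few calls. A negative estimate was also found for 50.2% of all tested genes and for 76.0% of those reaching a mean of 5 TPM. Over all tested genes, edgeR called 0.659% lower and 10.5% higher, and 9.11% were lower at an unadjusted p under 0.05. With the block 2.07% were called lower, by DESeq2 1.72% and by voom 1.53%. Of 16 fibrillar collagens and fibril partners 15 had a negative estimate, 0 were called by edgeR (4 lower at an unadjusted p under 0.05, 4 by DESeq2, 0 by voom and 1, *Col12a1*, with the block) and the median log2 fold change was -0.82. Of 10 tested enzymes that hydroxylate or cross-link collagen, 9 were negative, 0 were called by edgeR (1 lower at an unadjusted p under 0.05, 1 by DESeq2, 0 by voom and 1, *P4ha1*, with the block) and the median was -0.73. Of 24 tested genes for chondroitin and dermatan sulfate chains, *Csgalnact2*, which acts early in making the chain, was lower (-1.51, adjusted p = 0.0433) and the sulfotransferase *Chst3* was higher (5.15, adjusted p = 0.0214). Of 9 tested genes for keratan sulfate chains, *B3gnt7*, which extends the chain, was higher (3.65, adjusted p = 0.0203). The medians of these 2 lists were -0.23 and -0.24. *Chst3* and *B3gnt7* were at low levels, with a mean of 1.83 and 0.95 TPM over the 6 libraries. They were called higher as were 10.5% of all tested genes.

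Over all tested genes, edgeR called 0.659% lower and 10.5% higher, while 2.07% were lower with the block and 1.72% by DESeq2. Of 23 tested proteoglycans outside the family, *Sdc2* (syndecan-2, of the cell surface) was lower (-1.45, adjusted p = 0.0400) and *Ncan* (neurocan, of brain matrix) was higher (3.81, adjusted p = 0.0202), with a median of -0.45. With the block 3 were lower, *Sdc2*, *Gpc3* (adjusted p = 0.0482) and *Tgfbr3* (adjusted p = 0.0476), and DESeq2 called the same 3. Of 15 ligands and receptors that SLRPs bind, *Itgb1*, the β1 integrin chain, was lower (-1.10, adjusted p = 0.0358), with a median of -0.48. With the block *Egfr* also passed (-1.13, adjusted p = 0.0472), as it did in DESeq2 (adjusted p = 0.0259). Of 9 tested proteases that cleave SLRPs, *Adamts1* was lower (-1.22, adjusted p = 0.0414), with a median of -0.85. With the block 3 were lower, *Adamts1*, *Mmp2* (adjusted p = 0.0459) and *Adamts5* (adjusted p = 0.0454), and DESeq2 called *Adamts1* and *Mmp2*.

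Markers of other cells moved with the members in part. The 18 fibroblast markers outside the family summed to 2221 to 4860 TPM in AAV-CTRL, against 498 to 1675 TPM in AAV-VEGF-C, with none of them at 0 in every library. Of the 16 tested, 15 had a negative estimate, 0 passed in edgeR (8 lower at an unadjusted p under 0.05, 6 by DESeq2, 0 by voom and 3 with the block), and the median log2 fold change was -0.96. Among all tested genes 50.2% had a negative estimate (76.0% of those reaching a mean of 5 TPM), and 9.11% were lower at an unadjusted p under 0.05. Calls over all genes were 0.659% lower and 10.5% higher by edgeR, 1.72% lower by DESeq2 and 2.07% lower with the block. The sum of the SLRPs was 29.2%, 25.9% and 26.0% of the fibroblast sum in AAV-CTRL 1, 2 and 3, against 25.2%, 25.1% and 21.3% in AAV-VEGF-C 1, 2 and 3. The part of fibroblast RNA in the lower SLRP levels was not tested. Of 10 tendon and bone markers, *Tnmd* (tenomodulin) was lower (-2.19, adjusted p = 0.0399) and *Dmp1*, a bone matrix protein, was higher (4.34, adjusted p = 0.0193), with sums of 129 to 349 TPM and 34.2 to 146 TPM. Of 9 mural, 8 blood endothelial and 7 tested leukocyte markers, 0 passed in edgeR, DESeq2 or voom, and 0 had an unadjusted p under 0.05 (medians of -0.62, -0.86 and -0.12), and the leukocyte sum ranged from 21.4 to 1448 TPM within AAV-CTRL.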

How the data were processed

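Bulk RNA-seq of sorted dural LECs was analysed in 3 AAV-CTRL and 3 AAV-VEGF-C libraries, grouped by the labels. Total RNA (Direct-zol) was made into stranded libraries for low input (SMARTer Pico Input). For each gene the authors deposited an estimated count, with no scaling between libraries, and a TPM value, corrected for gene length and library total. The submitters' processing notes name mm10, FastQC, Trimmomatic, DRAGEN and Picard. Whether counting used strand or molecular identifiers is not given in the sources used here. GENCODE M21 (GRCm38) holds 98.1% of the identifiers, version included, and positions, lengths and GC content were taken from it.

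Estimated counts were rounded. Genes were kept by filterByExpr of edgeR (4.0.16, R 4.3.3), scaled by TMM, and tested by quasi-likelihood, with Benjamini-Hochberg adjusted p over 17459 genes called at 0.05. Alternatives were DESeq2 (1.42.0), the tool of the study, limma (3.58.1) on log2(TPM + 1) and log2(TPM + 0.1), voom with sample weights, other scalings and filters, drawn-down counts, subtraction of background, a block and leaving out each library. GC correction and 3 combinations with the block were chosen after seeing the data. Standard errors are the log2 fold change divided by the root of F. Single values were compared by exact permutation tests (scipy 1.17.1). edgeR was tested on simulated data.

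Replicate numbers mark the experiment per the labels. Deviations from the group means correlated at 0.35, 0.25 and 0.16 between same-numbered libraries across genes, which are not independent replicates (highest other 0.21), so the numbers were taken to pair the libraries. Libraries of a group differed beyond sampling noise (lowest chi-square over degrees of freedom 7.70).

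Named are all members, genes of the lists with an adjusted p under 0.05, listed neighbours, *Col1a1*, *Col1a2*, *Col3a1*, *Pdgfra* and the 5 tested genes reaching a mean of 5 TPM that correlated most with *Dcn*, with predicted genes and those for ribosomal, mitochondrial, histone and small RNAs left out. *P4ha1*, *Col12a1*, *Gpc3*, *Tgfbr3*, *Egfr*, *Mmp2*, *Adamts5*, *Nyx* and the LEC genes were named after their values were seen. The members and lists were chosen with earlier results of these data known.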

Additional observations from a re-analysis of the deposited data

How the results depend on the processing

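The estimates of the 8 tested members were negative in every one of the 22 or 23 fits that gave a value, while the calls depended on the setting. Against 2 members called lower, 5 were called by DESeq2 (1.72% of the genes tested) and 8 without the filter on low counts (2.64%). A count of 4 was reached by limma on log2(TPM + 1) (2.49%), with the replicate block (2.07%) and at an adjusted p under 0.1, where no share is given. DESeq2 and the fit without the filter also called 1 member higher (*Kera*). 0 were called lower by edgeR on counts drawn down to the smallest total (2 of 6 tested at an unadjusted p under 0.05), on genes reaching a mean of 5 TPM, both with (5 of 8) and without the block (5 of 8), scaled on the 2000 most abundant genes (5 of 8), after subtraction of the silent-family background (5 of 8) and after GC correction (4 of 8). For these fits the share of all genes at an unadjusted p under 0.05 was not determined (9.11% were lower in the main fit). In several of these fits the calls over all genes also nearly vanished: 0 genes were called lower in the drawn-down counts, with the TPM filter or with background subtracted. With the block beside background subtraction or GC correction, 3 members passed (*Dcn*, *Ogn* and *Aspn*), with 0.0655% and 0.252% of the genes tested called lower. Leaving out each library gave between 0 and 0 members lower, while between 0 and 48 genes were called lower in all. At an unadjusted p under 0.05 there were 5 to 8 members, and the share of all genes was again not determined. The log2 fold changes ranged from -2.66 to -1.0 for *Dcn*, -2.78 to -1.24 for *Ogn*, -4.28 to -1.90 for *Aspn* and -2.08 to -0.49 for *Bgn*. Scaling on the 2000 most abundant genes moved the median of all tested genes to 0.30 and library size alone to -0.10, and the members' medians were then -1.34 and -1.77. The difference between the group means of the log2 ratio of *Dcn* to *Col1a1* ranged from -1.20 to -0.63 when libraries were left out. The replicate block changed the call of *Lum* and *Aspn* and of no other member. The cause of these changes was not tested. Depth limits *Aspn*, *Omd* and *Kera* most, whose counts in AAV-VEGF-C lie between 0 and 36.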
